A study of Homo sapiens with 42 samples.

Results

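Accessible chromatin that was found in untreated DU4475 cells and in none of the other untreated lines comprised 3442 segments. They are the members described here. A segment is a run of bases covered by an interval in all 3 DU4475 lists of the DMSO control, at least 100 bp long and on chromosomes 1 to 22 or X. Of 49202 such segments, 3442 (7.0%) overlapped no interval in any of the 18 DMSO lists of the 6 other lines, and the other 45760 are called shared segments. The 42 deposited lists merged into 2458415 intervals in all. DMSO lists of all 7 lines thus chose the members, so their presence in DU4475 DMSO and absence elsewhere in DMSO are not results. The lists of cells treated with FHT-1015 played no role in the choice.

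The assay was ATAC-seq: a transposase cuts and tags DNA where nucleosomes leave it open. The 7 lines of WT genotype, as labelled, were treated for 4 h with FHT-1015 or with DMSO, the negative control, with 3 biological replicates per group and 14 groups. DU4475 is labelled an invasive breast carcinoma; the other 6 lines were A375 (melanoma), HCT116 (colorectal adenocarcinoma), 92-1 (uveal melanoma), MV411 (acute myeloid leukemia), RD (rhabdomyosarcoma) and 22RV1 (prostate adenocarcinoma). The comparison asked how loss of remodeller activity alters accessibility. Each group is 1 cell line, so the replicates measure the spread within DU4475 and not among breast cancers.

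FHT-1015 inhibits SMARCA4 and SMARCA2, the alternative ATPase motors of the BAF (SWI/SNF) complexes, which use ATP to slide or eject nucleosomes. BAF activity is known to keep many distal enhancers open, and enhancers are where accessibility differs most between cell types. DU4475 grows in suspension and is known for a truncating mutation of APC, a scaffold of the complex that destroys beta-catenin. Beta-catenin acts with the TCF/LEF factors at target genes of the WNT pathway.

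The label of the line was set against marker genes by asking which genes had, within 1 kb of either end, an interval with −log10 q of at least 5 in all 3 DU4475 DMSO lists (q is the p-value adjusted by the peak caller). Such intervals, called strict below, were present at 14 of 22 epithelial genes, among them EPCAM, CDH1, GRHL2 and ESRP1. They were present at 10 of 20 luminal breast genes, including FOXA1, KRT8, KRT18, ERBB2 and TRPS1, and at 10 of 22 basal breast genes, including KRT5, EGFR and SOX9. GATA3, ESR1, KRT19, TP63 and KRT14 had none by this measure. At genes of the WNT pathway the count was 17 of 20, against 2 to 11 in the other 6 lines, whose lists differed in strength. None of 11 skeletal muscle genes had one, nor did PTPRC, the general leukocyte marker, although 7 of 16 haematopoietic genes did. Counts for other tissues were 5 of 10 prostate, 4 of 11 neuroendocrine, 3 of 10 melanocyte and 2 of 11 intestinal genes. These counts do not set DU4475 apart as breast: 22RV1 had 12 of the luminal, 14 of the basal and 15 of the epithelial genes.

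Only 32 members (0.930%) touched a promoter window of RefSeq (GRCh38.p14; 250 bases before to 50 after a start, for 27195 genes), against 22.9% of shared segments. These 32 lay on windows of 31 genes, of which 11 were protein-coding and 20 lncRNA genes. The sequences below are the 4 such genes with at least 290 of the 300 bases inside a member whose −log10 q was at least 5 in every DU4475 DMSO list. They are shown because reference sequence could be read only at promoter windows, and they passed both limits. Each runs 5′ to 3′ in the direction of its gene on GRCh38.p14, with the strand in parentheses, and capitals mark matches on either strand to the 20 short motifs searched.
PRSS56, chr2:232520138-232520437 (+): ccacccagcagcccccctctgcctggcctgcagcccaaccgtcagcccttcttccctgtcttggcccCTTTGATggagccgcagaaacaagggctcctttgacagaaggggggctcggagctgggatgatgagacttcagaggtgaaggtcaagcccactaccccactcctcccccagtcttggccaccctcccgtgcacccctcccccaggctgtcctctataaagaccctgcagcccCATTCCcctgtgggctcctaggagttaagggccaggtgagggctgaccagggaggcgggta
LOC107984361, chr11:87359503-87359802 (+): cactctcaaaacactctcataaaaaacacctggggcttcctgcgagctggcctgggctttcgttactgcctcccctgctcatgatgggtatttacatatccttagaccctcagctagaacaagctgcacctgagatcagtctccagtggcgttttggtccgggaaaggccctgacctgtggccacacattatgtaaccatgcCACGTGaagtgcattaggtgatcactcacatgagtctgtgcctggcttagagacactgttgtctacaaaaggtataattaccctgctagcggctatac
LOC105373417, chr2:9145861-9146160 (-): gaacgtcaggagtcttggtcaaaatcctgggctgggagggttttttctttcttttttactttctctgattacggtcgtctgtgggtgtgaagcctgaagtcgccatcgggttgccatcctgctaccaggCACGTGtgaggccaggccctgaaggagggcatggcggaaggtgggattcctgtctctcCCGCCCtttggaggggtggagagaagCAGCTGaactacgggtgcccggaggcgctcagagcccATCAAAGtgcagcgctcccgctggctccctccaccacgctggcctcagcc
LOC101927082, chr6:51621620-51621919 (+): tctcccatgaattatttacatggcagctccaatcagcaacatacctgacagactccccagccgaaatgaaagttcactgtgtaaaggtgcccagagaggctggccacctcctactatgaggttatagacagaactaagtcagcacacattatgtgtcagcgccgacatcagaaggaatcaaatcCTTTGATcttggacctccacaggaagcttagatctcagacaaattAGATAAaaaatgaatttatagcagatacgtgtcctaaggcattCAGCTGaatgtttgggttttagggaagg

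PRSS56 encodes a serine protease best known for its role in growth of the eye, and the other 3 are uncharacterised lncRNA loci. Pileup is the height of overlapping fragments at the strongest summit, recovered from the deposited fold and p, and is not scaled for depth. At the PRSS56 member pileups were 66, 84 and 64 in the 3 DMSO replicates and 64, 96 and 46 in the 3 FHT-1015 replicates. The groups overlapped there. At LOC107984361 they were 53, 33 and 27 with DMSO and 9 with FHT-1015 replicate 1, and the other 2 FHT-1015 lists held no interval. This member was higher in every DMSO list than in any FHT-1015 list, but the rule required its DMSO intervals, so this is a description. At LOC105373417 they were 32, 21 and 19 against 20, 20 and 15, and at LOC101927082 they were 23, 21 and 16 against 15, 13 and 9. The first pair of groups overlapped and the second did not.

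These 31 genes had 34 windows with a member, some of them overlapping windows of 1 gene. The letters CTTTGAT of the TCF/LEF motif stood in 5 of the 34 (14.7%) and in 2.63% of all 34961 windows. PRSS56, LOC105373417 and LOC101927082, printed above, hold 3 of the 5, and CD226 and MIR4432HG the others. The E-box CACGTG stood in 6 of 34 windows (17.6%) against 7.27% of all. The KLF/SP letters GGGCGG stood in 32.4% against 45%, and the AP-1 letters TGACTCA in 2.94% against 4.92%. Median GC was 54.3% in windows holding a member, 67.0% in windows holding a shared segment and 58.7% in all windows. Both strands were searched; with 34 windows each match moves a share by several points, and no site of any factor was measured.

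Members were short, weak and far from genes compared with shared segments. Their median length was 201 bp (quartiles 150 and 310) against 396 bp (206 and 791), and they covered 870 kb in all. The lowest −log10 q of the 3 DMSO lists had a median of 1.72 (quartiles 1.05 and 3.00) among members and 3.96 (1.60 and 18.3) among shared segments. Of the members, 2246 (65.3%) had q under 0.05 in all 3 DMSO lists, and 433 (12.6%) were strict in all 3 against 44.7% of shared segments. Median pileups at the members were 15, 13 and 12 in the DMSO replicates, over median local backgrounds of 2.73, 3.06 and 2.60. These values belong to the lists that chose the members and are given as a description.

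Only 103 members (2.99%, 95% Wilson interval 2.47 to 3.62) had their middle within 1 kb of an end of a protein-coding gene, against 25.7% of shared segments. Among members with a mean −log10 q of at least 5 over the 6 DU4475 lists, called strong, the share was 4.14%, against 44.1% of strong shared segments. The median distance to a gene end was 41.8 kb for members and 15.3 kb for shared segments, and 30.4% against 18.1% lay over 100 kb away. About as many lay inside a gene, 52.3% of members and 54.8% of shared segments. The nearest other 3-of-3 segment lay at a median of 9.49 kb from members and 10.7 kb from shared segments. For strong members the median was 2.37 kb, against 10.6 kb for strong shared segments. The interval above covers counting error only, and the gene table gives no strand or exons, so either gene end was used and exon or intron is not stated.

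**Figure D1:**
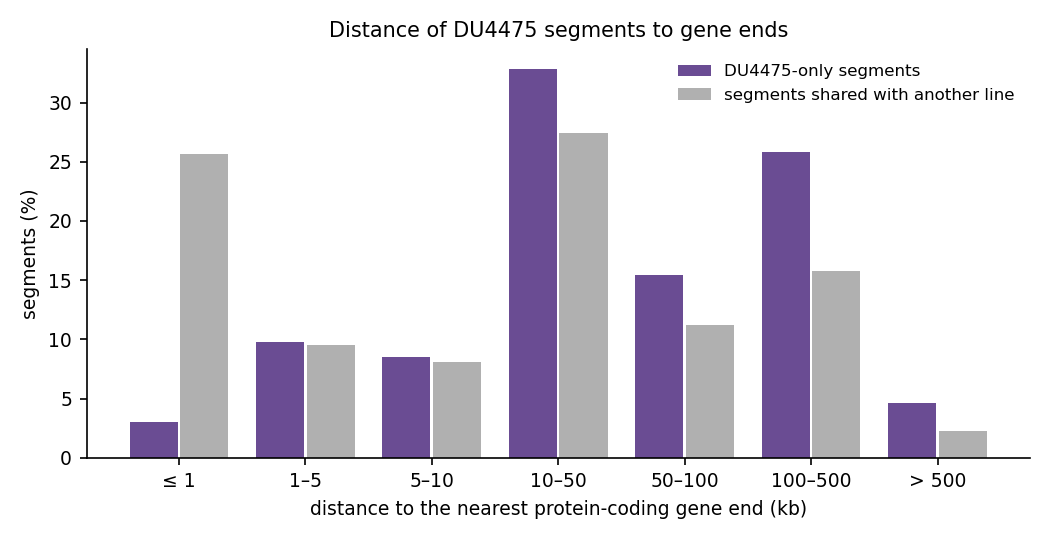
Share of segments (%, vertical axis) by distance of the segment middle to the nearest end of a protein-coding gene (kb, horizontal axis), for the 3442 DU4475-only segments (purple) and the 45760 shared segments (grey). Within 1 kb lay 2.99% of DU4475-only and 25.7% of shared segments.

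Chromosome X had the highest share of members among its DU4475 segments, 115 of 999 (11.5%), followed by chromosome 3 (9.16%) and chromosome 4 (9.03%). Chromosome 19 had the lowest, 50 of 1890 (2.65%), and chromosome 16 had 3.90%. Copy number of the lines, which changes how easily a list shows an interval, was not measured here.

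The rule acts on bases, and its edges matter for reading a member. For 1639 members (47.6%) the whole DU4475 DMSO intervals behind them were free of other lines. For the other 1803 (52.4%) those intervals ran on into a stretch also covered in another line. Such a member is the part of a wider DU4475 interval that no DMSO list of the other lines covered. The median width in the DMSO lists was 305, 287 and 281 bp in DU4475. It was 193, 199 and 201 bp in 22RV1 and 304, 300 and 244 bp in A375. The part of interval width in these flanks was not tested. The strongest summit lay inside the segment in all 3 DMSO lists for 1932 members (56.1%). The share with no FHT-1015 interval was close in both kinds, 21.5% and 20.5%. At the length limit, 19 members were exactly 100 bp, such as chr1:89745043-89745142 and chr1:192651993-192652092, and 10 unshared segments of 99 bp, such as chr1:43577784-43577882 and chr2:156127258-156127356, were left out. At the limit on other lines, 4506 segments were removed by exactly 1 of the 18 lists, and 22RV1 alone removed 1791, the most of any line.

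After 4 h of FHT-1015 most members still had an interval in some DU4475 list, but fewer of them than of shared segments did. Of the 3442 members, 721 (20.9%, 95% Wilson interval 19.6 to 22.3) had no interval in any of the 3 FHT-1015 lists, where 7.22% of all 49202 segments and 6.19% of shared segments had none. A further 923 (26.8%) had one in 1 list, 884 (25.7%) in 2 and 914 (26.6%) in all 3, against 63.8% of shared segments in all 3. In FHT-1015 replicates 1, 2 and 3 the share of members with an interval was 54.3%, 58.6% and 45.0%. The description of the set as open in untreated DU4475 thus holds for the choice and does not mean closed after treatment. Since the rule requires all 3 DMSO lists, these shares cannot be read as a loss.

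For a comparison of treatments that the choice does not fix, segments were picked by the same rule with 2 of the DU4475 DMSO lists, and the share found again was read in the DMSO list left out and in the FHT-1015 lists. With DMSO replicates 1, 2 and 3 left out, 6230, 6831 and 6865 DU4475-only segments were picked, and 56.2%, 49.4% and 49.2% of them had an interval in the DMSO list left out. In FHT-1015 replicates 1, 2 and 3 the share, averaged over the 3 picks, was 40%, 43.7% and 32.5%. Every FHT-1015 list lay below every DMSO list. The means were 51.6% ± 3.95 and 38.7% ± 5.67 (SD, n = 3 each), a difference of 12.9 percentage points, with p = 0.1 in a two-sided exact permutation test, the smallest that 3 against 3 allows. Segments picked with only 1 DMSO list gave smaller differences, 1.06, 2.49 and 2.65 points without DMSO replicates 1, 2 and 3, with exact permutation p = 0.9, 0.5 and 0.4.

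Shared segments picked in the same way also had fewer intervals with FHT-1015. Their shares were 78.5%, 74.4% and 74.1% with DMSO and 69.5%, 72.8% and 63.6% with FHT-1015, a difference of 7.03 points (two-sided exact permutation p = 0.1). Relative to its DMSO mean, the mean after treatment was 75% at DU4475-only segments and 90.7% at shared ones. The gap between both kinds was −24.1 ± 1.48 points in the controls and −29.9 ± 1.05 after treatment (SD, n = 3 each), and the difference of 5.87 points again gave an exact permutation p = 0.1 with no overlap. The direction of this difference of gaps turned when a single DMSO list did the picking (−1.34 to −0.766 points).

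Restricting the DU4475 lists to strict intervals widened both differences. DU4475-only segments were then found again in 94.6%, 65.6% and 67.0% of cases in the DMSO lists and in 42.2%, 45.7% and 30.7% in the FHT-1015 lists. The means were 75.7% ± 16.4 and 39.5% ± 7.88 (SD, n = 3 each), 36.2 points apart, against 12.3 points at shared segments, and the gaps differed by 23.9 points (two-sided exact permutation p = 0.1 for each). DMSO replicate 1, the list with the most strict intervals, stood above the other 2.

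**Figure D2:**
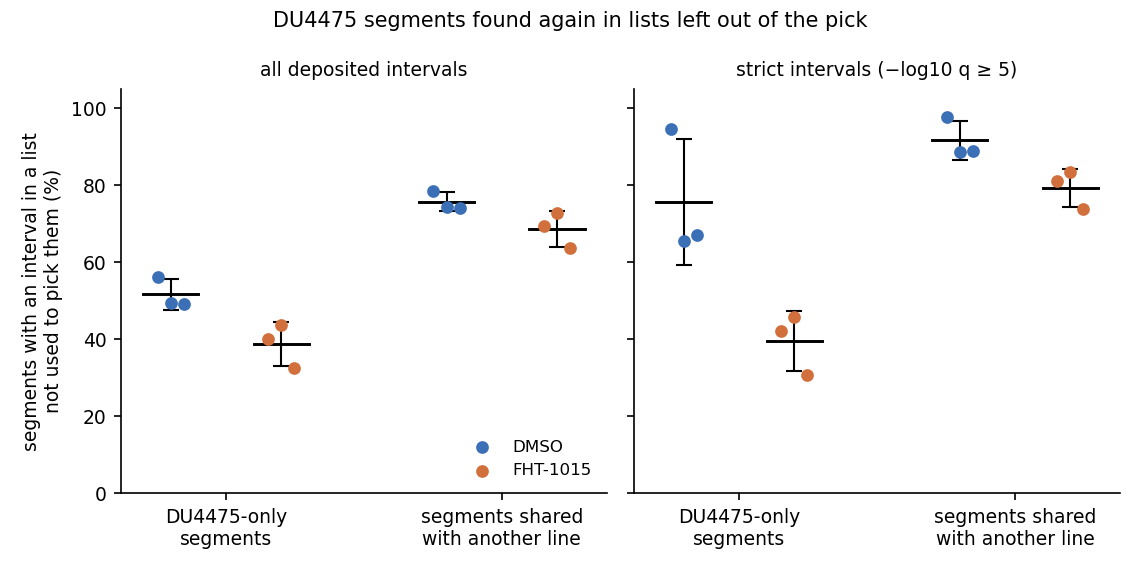
Share of segments (%) with an interval in a DU4475 list that was not used to pick them, for DU4475-only and shared segments, with all deposited intervals (left) and with strict intervals (right). Points are the 3 replicates of DMSO (blue) and FHT-1015 (orange), lines the means and bars the SD; at DU4475-only segments every FHT-1015 point lies below every DMSO point in both panels.

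Depth differed among the lists, and its part in these shares was not tested. DU4475 lists held 160628 to 214741 intervals, and the lowest background pileup, a stand-in for depth, was 1.98, 2.4 and 2.01 in the DMSO lists and 2.25, 2.79 and 1.41 in the FHT-1015 lists, in the order of the replicates. Strict intervals numbered 25814 to 35453 with DMSO and 18103 to 22708 with FHT-1015.

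The difference between treatments was not the same at all strengths. Picked DU4475-only segments whose lower −log10 q in the 2 picking lists was under 1 were found again in 33.0% with DMSO and 27.4% with FHT-1015, a difference of 5.60 points that was close to the 4.87 points at shared segments of that strength. Between 3 and 5 the shares were 82.8% and 54.6%, 28.2 points apart, against 14.3 points at shared segments. Between 5 and 10 they were 95.9% and 73.0%, 22.9 points apart against 8.84. Above 10, 99.8% and 93% were found, 6.77 points apart against 0.686, so the strongest DU4475-only segments nearly all kept an interval. These differences within strength classes are descriptions with no test of their own.

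**Figure D3:**
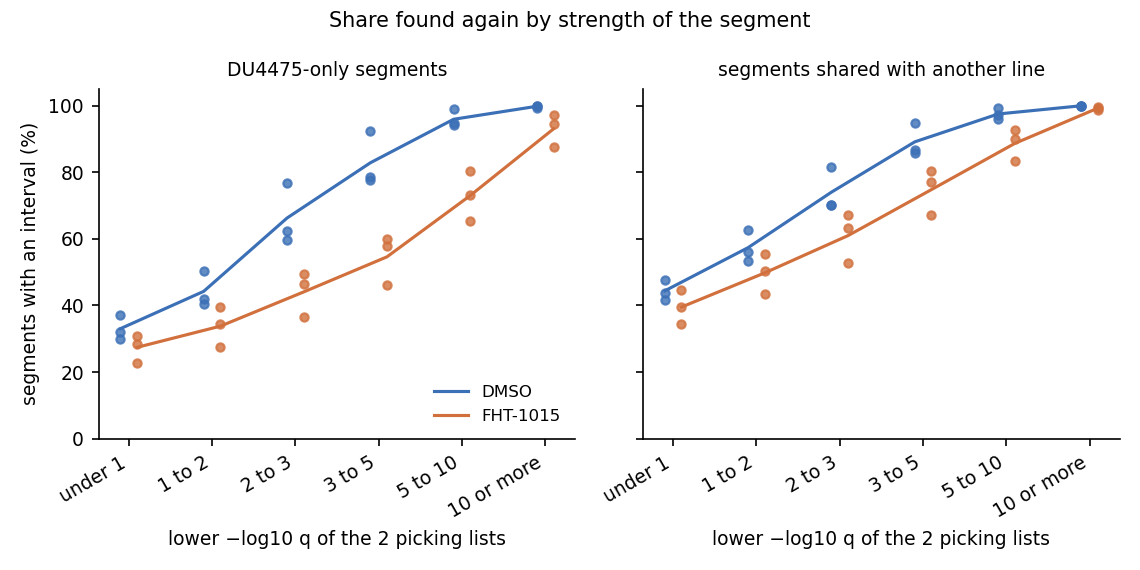
Share of picked segments (%) with an interval in a list left out of the pick, by the lower −log10 q of the 2 picking lists (horizontal axis), for DU4475-only (left) and shared segments (right). Points are replicates and lines the means of DMSO (blue) and FHT-1015 (orange); the widest spacing at DU4475-only segments, 28.2 points, lies in the class from 3 to 5.

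Among the 628 strong members the rank of the strongest overlapping interval in each list was compared, rank 1 being the strongest peak. Every FHT-1015 rank was weaker than every DMSO rank at 159 members (25.3%), where 12.3% of all 24525 strong segments and 12% of strong shared segments were. Every FHT-1015 rank was stronger at 46 members (7.32%), where 8.53% of all strong segments were. Both counts include DMSO values that the rule used, so they are given with no test.

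The 12 strongest members, by the lowest −log10 q of the 3 DMSO lists, split into 7 whose ranks overlapped between treatments, 4 that were weaker in every FHT-1015 list and 1 that was stronger. Inside SLC7A5, a gene for an amino acid transporter, chr16:87842202-87842915 had pileups of 182, 152 and 137 with DMSO and 187, 186 and 175 with FHT-1015. Inside OSBPL5, which encodes a lipid transfer protein of the oxysterol-binding family, chr11:3149426-3150463 had 166, 123 and 131 against 163, 163 and 144. The groups overlapped at both.

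Inside SRRM4, a gene for a neural splicing regulator, chr12:118991858-118992712 had pileups of 84, 63 and 65 with DMSO and 95, 94 and 94 with FHT-1015; every FHT-1015 pileup was higher, while the ranks overlapped. Inside SNTB1, which encodes a syntrophin of the dystrophin complex, chr8:120774983-120775575 had 80, 72 and 56 against 99, 91 and 53, and it was the 1 of the 12 with a stronger rank in every FHT-1015 list. Its pileup in FHT-1015 replicate 3 was the lowest of the 6, in the list with the lowest background. Pileups and ranks overlapped between treatments at chr7:83872471-83872895, 83.1 kb from SEMA3A, a secreted guidance cue (76, 63 and 62 against 68, 81 and 50). The same held at chr15:91331533-91332069, 29.2 kb from the synaptic vesicle gene SV2B (63, 51 and 56 against 72, 82 and 57). The last of the 7 with overlapping ranks was chr2:3282116-3282973 inside EIPR1 (97, 63 and 86 against 81, 96 and 71), a gene of endosomal trafficking, besides the PRSS56 member given above.

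The weaker group held 4 segments in 3 genes. Inside KIAA1614, chr1:180945271-180945910 had pileups of 125, 90 and 82 with DMSO and 64, 57 and 34 with FHT-1015. The neighbour chr1:180946098-180946431 shares an interval with it and had 109, 90 and 82 against 64, 57 and 34, so 1 interval is counted at 2 members. Inside RGL1, which encodes an exchange factor for Ral GTPases, chr1:183887898-183888731 had 83, 81 and 69 against 51, 74 and 28. Inside TENT5D on chromosome X, chrX:80354689-80355585 had 59, 52 and 43 against 31, 32 and 19. KIAA1614 and TENT5D had no overlap of pileups between treatments, and at RGL1 the 74 of FHT-1015 replicate 2 lay above the 69 of DMSO replicate 3.

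**Figure D4:**
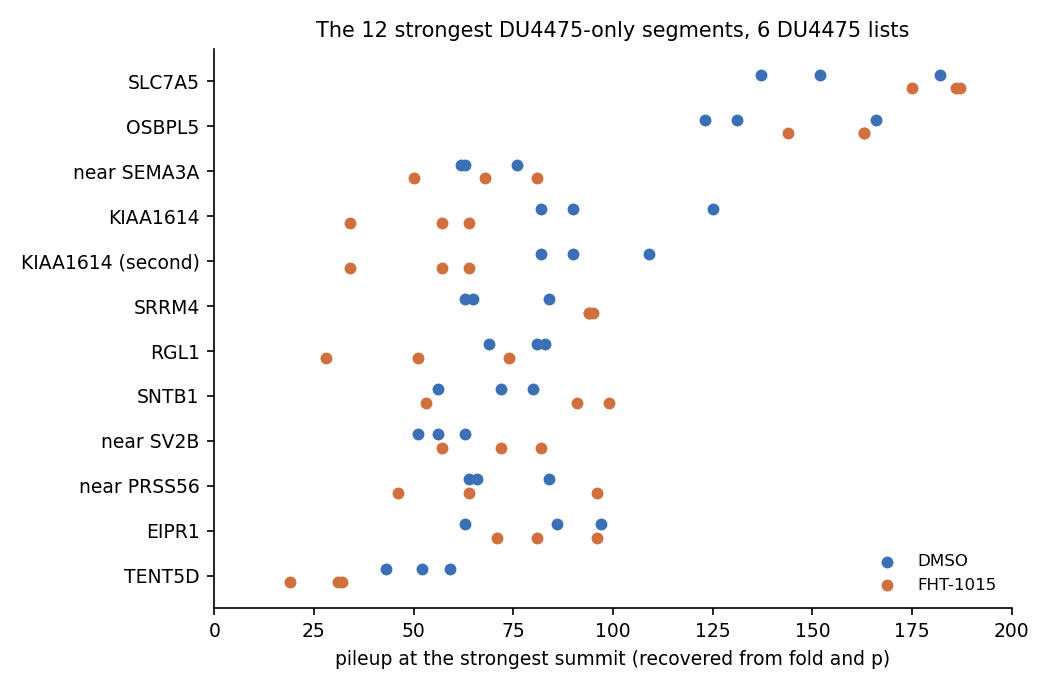
Pileup at the strongest summit (horizontal axis, not scaled for depth) of the 12 strongest DU4475-only segments, named by the gene they lie in or near, in the 3 DMSO (blue) and 3 FHT-1015 (orange) lists of DU4475. The KIAA1614 and TENT5D values with FHT-1015 lie below all their DMSO values, while SLC7A5 reaches 187 with FHT-1015 and 182 with DMSO.

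The 2 members with the highest lowest-of-3 DMSO −log10 q among those without any FHT-1015 interval were named after their values were seen. Inside FREM3, chr4:143606104-143606404 had pileups of 18, 18 and 20 in the DMSO lists. Inside ASCL5, a gene of the achaete-scute family, chr1:201116240-201116559 had 110, 62 and 61, over a high local background of 34.4, 24.6 and 21.2. Fold over background was 3.13, 2.46 and 2.79 there, against 6.37, 5.58 and 6.97 at the FREM3 member. The presence of both members in every DMSO list was required by the rule. The difference between treatments at single members of this kind is thus a description.

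Of the genes of the WNT pathway and its feedback, 12 of 20 had a member inside the gene or within 100 kb of it, where 25.4% of all 19974 protein-coding genes had one. Their 250 DU4475 segments held 18 members (7.20%), near the 7.0% of all segments. Of these 18 members, 11 had an interval in all 3 FHT-1015 lists and 3 in none, against 26.6% and 20.9% of all members. The 2 sets were not matched for strength, with which the share found again rose above. The lowest DMSO −log10 q of the 18 ranged from 0.671 to 18.3, where the median of all members was 1.72. The part of strength in these counts was not tested. The genes were listed with earlier results of these data known.

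The nuclear factors come first in that list. TCF7, which encodes TCF1, had 4 members, all with an interval in all 3 FHT-1015 lists. The strongest, chr5:134113039-134113670, lies where TCF7 overlaps VDAC1, and its pileups were 191, 143 and 124 with DMSO and 124, 156 and 102 with FHT-1015, over a high local background of 50.1, 51.0 and 46.1 with DMSO. At chr5:134086765-134087443, 21.1 kb from TCF7, they were 86, 44 and 52 against 57, 50 and 43. Inside LEF1, the gene of a related factor, chr4:108141272-108141746 had 28, 31 and 15 against 18, 27 and 12. Pileups overlapped between treatments at each of these 3. At chr5:134059860-134060360, inside VDAC1 and 48.1 kb from TCF7, they were 36, 21 and 18 against 28, 35 and 19. This member ranked stronger in every FHT-1015 list (ranks 16710, 15681 and 17432) than in any DMSO list (18008, 31169 and 47496). Another member inside LEF1, chr4:108061036-108061217, had 29, 13 and 17 against 0, 11 and 8, with no overlap. A 0 means that no interval was listed. The rule required its DMSO intervals, so this is a description.

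The feedback inhibitors that cells switch on in answer to WNT follow. Inside ZNRF3, a ubiquitin ligase that removes WNT receptors, chr22:28920882-28921328 had pileups of 48, 64 and 34 with DMSO and 59, 50 and 46 with FHT-1015. The related ligase gene RNF43 had 26, 20 and 14 against 21, 16 and 12 at chr17:58365229-58365599. Near AXIN2, a scaffold of the beta-catenin destruction complex, chr17:65593220-65593978 had 27, 29 and 25 against 32, 40 and 20. Pileups overlapped at all 3. This AXIN2 member ranked stronger in every FHT-1015 list (ranks 15042, 14222 and 18039) than in any DMSO list (28476, 19648 and 20061). Another member, chr17:65544608-65544958 inside AXIN2, had pileups of 31, 14 and 13 with DMSO and 11, 11 and 8 with FHT-1015, with no overlap. The rule required its DMSO intervals, so this is a description.

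For the secreted inhibitors 2 members are given, picked after their values were seen. At chr8:42371433-42372362, 2.17 kb from DKK4 but only 0.09 kb from an end of POLB, a DNA polymerase gene, the member had pileups of 71, 20 and 26 with DMSO and 10, 13 and 9 with FHT-1015, with no overlap. Near DKK1, chr10:52297837-52298257 had 11, 9 and 12 with DMSO and no interval with FHT-1015. At DKK4 DMSO replicate 1 stood far above the others, and no test sets these members against the rest of the list. The other members without an FHT-1015 interval were near LGR6, a receptor for R-spondins (26, 22 and 23 with DMSO), and inside CD44, a cell adhesion gene (19, 11 and 10).

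Luminal breast genes with a member numbered 10 of 20, where 25.4% of all protein-coding genes had one. Of their 135 segments 12 were members (8.89%), beside 7.0% of all DU4475 segments. Near GATA3, a luminal transcription factor, chr10:8030547-8030986 had pileups of 14, 13 and 12 with DMSO and no FHT-1015 interval. Inside TRPS1, which encodes a GATA-type repressor of breast epithelium, chr8:115441828-115441964 had 18, 18 and 16 with DMSO, 9 in FHT-1015 replicate 2 and no interval in the other 2. At ERBB2, the HER2 receptor gene, chr17:39706959-39707275 inside the gene had 26, 28 and 18 against 36, 25 and 18. A second member 13.0 kb away, chr17:39674875-39675292, had 25, 33 and 23 against 50, 36 and 21, so at ERBB2 the groups overlapped. At GATA3 and TRPS1 they did not, but the rule required every DMSO interval there, so this is a description. Of the 12 luminal members 5 were in all 3 FHT-1015 lists and 2 in none, where 26.6% and 20.9% of all members were.

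Basal breast genes with a member numbered 11 of 22, beside 25.4% of all protein-coding genes. They had 12 members of 152 segments (7.89%), beside 7.0% of all DU4475 segments. Of these 12, 1 was in all 3 FHT-1015 lists and 2 in none, where 26.6% and 20.9% of all members were. Inside MYLK, the myosin light chain kinase of contractile cells, chr3:123639416-123639628 had pileups of 20, 22 and 15 with DMSO and no FHT-1015 interval. Near OXTR, the oxytocin receptor gene, chr3:8736367-8736800 had 33, 26 and 16 with DMSO and 11 in FHT-1015 replicate 3 only. At both, each FHT-1015 list was below every DMSO list or held no interval. The rule required their DMSO intervals, so this too is a description. KRT5, KRT6A and KRT6B share 1 weak member with pileups of 9, 8 and 6 against 12, 0 and 0, where 0 means that no interval was listed.

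Epithelial identity genes with a member numbered 5 of 22 (22.7%, against 25.4% of all protein-coding genes), with 6 members in 237 segments (2.53%). MAPK feedback genes with a member numbered 4 of 14, with 4 members in 116 segments (3.45%). Of all DU4475 segments 7.0% were members. Near SPRY1 (47.3 kb away), an inhibitor of receptor tyrosine kinase signalling, chr4:123349403-123349641 had 31, 21 and 15 against 14, 0 and 0. A 0 means that no interval was listed. The rule required every DMSO interval, so the lack of overlap is a description.

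Members also lay at genes that mark other tissues. The share of members over all 49202 DU4475 segments was 7.0%. The counts were 5 members in 50 segments for melanocyte genes (10%), 9 in 143 for haematopoietic (6.29%), 3 in 50 for neuroendocrine (6.0%), 4 in 66 for skeletal muscle (6.06%), 8 in 108 for intestinal (7.41%) and 1 in 60 for prostate genes (1.67%). The member chr13:27875033-27875367 lies 85.7 kb from CDX2, an intestinal homeobox gene, and 44.8 kb from an end of PDX1. It had pileups of 23, 24 and 31 with DMSO and 19, 31 and 14 with FHT-1015. Inside BCL11A, a zinc finger repressor gene of lymphoid and breast epithelial cells, chr2:60544805-60545375 had 23, 18 and 19 against 15, 18 and 17. Inside PAX7, a muscle stem cell gene, chr1:18651783-18652398 had 22, 32 and 34 against 30, 39 and 21. Inside ERMP1 and 55.0 kb from MLANA, a melanosome antigen gene, chr9:5835696-5836055 had 39, 34 and 30 against 36, 26 and 16.

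The treatments overlapped at CDX2, PAX7 and MLANA, and at BCL11A they met at 18. The strongest prostate-list member, chr19:50911323-50911544, 0.039 kb from an end of KLK4 and within 100 kb of KLK2 and KLK3, had pileups of 12, 10 and 12 against 10, 16 and 6. The strongest in the neuroendocrine list, chr2:181657439-181657588, lies 0.409 kb from an end of CERKL and 10.8 kb from NEUROD1. It had pileups of 90, 59 and 18 with DMSO and 50, 61 and 0 with FHT-1015, where 0 means that no interval was listed. The strongest summit lay inside this segment in only 1 DMSO list, so the pileups of the other DMSO lists belong to the wider intervals behind it.

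Among the loci with the most members were these genes. AGAP1 had 9 members among 50 segments in the gene and 100 kb around it, CAMTA1 8 of 45 and SMYD3 8 of 57. These genes are long (638, 984 and 758 kb), and the counts were not scaled for length. Of all DU4475 segments 7.0% were members. MAD1L1 (7 of 50), GSE1 (7 of 70) and BCOR (7 of 28) tied at the next place. BCOR, a gene of a Polycomb corepressor on chromosome X, had the highest share of these, 25%, against 11.5% over chromosome X. At CAMTA1, a gene for a calmodulin-binding transcription activator, none of the 8 members lacked an FHT-1015 interval and 5 had one in all 3 lists. At GSE1 none of the 7 lacked one and 2 had one in all 3. Of all members 20.9% had none and 26.6% had one in all 3. The strongest CAMTA1 member had a lowest DMSO −log10 q of 23.2, where the median of all members was 1.72. The part of strength in these counts was not tested.

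In other lines the mean share of such segments with an interval was lower with FHT-1015 in 4 lines and higher by 0.178 and 0.308 points in 22RV1 and A375. Segments were picked without one line at a time and then read in that line, so that its lists had no part in the choice. In 92-1 the share with an interval was 12.1%, 11.1% and 10.1% with DMSO and 8.51%, 5.22% and 5.84% with FHT-1015, a difference of −4.59 points. In RD the means were 11.8% and 10.2% (−1.57 points) and in MV411 8.82% and 7.22% (−1.60 points). Groups did not overlap in these 3 lines (two-sided exact permutation p = 0.1 each, adjusted p = 0.2 over 6 lines by Benjamini-Hochberg). In 22RV1 (17.1% and 17.3%), A375 (8.80% and 9.11%) and HCT116 (7.11% and 6.84%) they overlapped, with exact permutation adjusted p = 0.9 in each. The 92-1 lists also shrank, from 349337 or more intervals with DMSO to 284405 or fewer with FHT-1015. In RD and MV411 the numbers of intervals overlapped between treatments, but strict intervals were fewer with FHT-1015. They fell from 21039 or more to 14297 or fewer in RD, and from 100604 or more to 50386 or fewer in MV411. The part of these changes in the results was not tested.

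**Figure D5:**
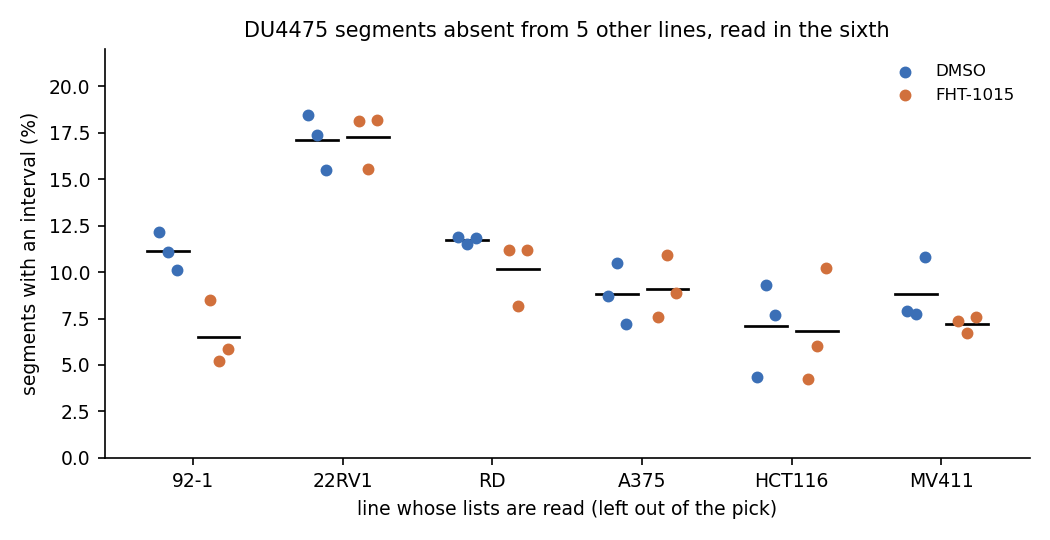
Share of DU4475 segments (%) with an interval in 1 other line, for segments picked without that line. Points are the 3 DMSO (blue) and 3 FHT-1015 (orange) lists of each line and bars the means; 22RV1 has the highest shares, 17.1% and 17.3%, and 92-1 the widest difference.

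Of the 3442 members, 1244 (36.1%) had no interval in any of the 18 FHT-1015 lists of other lines, 1062 (30.9%) had one in 1 list, 635 (18.4%) in 2 and 501 (14.6%) in 3 or more, up to 8. A strict interval in at least 1 of these lists was found for 68 members (1.98%) and in 3 or more for 0. All 3 FHT-1015 lists of a line held 30 members in 22RV1 (0.872%), 6 in RD, 5 in A375, 3 in 92-1, 2 in MV411 and 0 in HCT116. The same shares over all DU4475 segments are not given here, so these counts are not read as many or few. The 22RV1 lists with FHT-1015 were also long, at 260014 to 364998 intervals, and the part of list length was not tested. The 2 in MV411 were chr2:68776243-68776369 inside ARHGAP25, a GTPase regulator gene of leukocytes, with −log10 q of 4.69, 6.75 and 4.02, and chr7:50781235-50781801 inside GRB10, an adaptor gene of insulin signalling, with 2.66, 1.61 and 2.64. The 3 in 92-1 lay 378 kb from an end of TMEM121, 54.1 kb from an end of SLC24A5 and inside ZNF414, with −log10 q from 1.37 to 3.58.

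Those in A375 included members inside SORBS2, RAB11B, ZNF414 and TPM4. The ZNF414 member, chr19:8513210-8513371, had −log10 q of 78.5 in A375 FHT-1015 replicate 2 but 1.20 and 0.888 in the other 2 replicates. Its DU4475 pileups were likewise uneven: 24, 33 and 32 with DMSO and 0, 182 and 85 with FHT-1015, where 0 means that no interval was listed. The spread between replicates at this member was wider than any difference between treatments. Naming these regions follows from their small counts.

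Segments open only in other lines, chosen by the same rule, were read in the same way in the 3 lines set beside DU4475. There were 255 such segments of 27865 in HCT116, 8122 of 67653 in 22RV1 and 3331 of 54437 in A375. The share found again averaged 18.4% ± 6.74 in HCT116 controls and 13.6% ± 1.66 after treatment, where groups overlapped (two-sided exact permutation p = 0.4, SD, n = 3 each). In 22RV1 the means were 63.0% ± 5.48 and 23.7% ± 2.21, and in A375 65.1% ± 12 and 36.2% ± 13.3, with an exact permutation p = 0.1 in each. The mean after treatment was thus 37.6% of the untreated mean in 22RV1, 55.6% in A375, 74.2% in HCT116 and 75% in DU4475. The DU4475 difference minus that of the other line was 8.16 points for HCT116, −26.4 for 22RV1 and −16.0 for A375. Exact permutation of treatment labels within both lines gave p = 0.34, 0.135 and 0.365, adjusted p = 0.365 for each of the 3 pairs. It assumes no effect of treatment in either line, so it could not decide whether effects of the same direction differ in size. DU4475 was thus neither shown to differ from these lines nor shown to be like them. With replicate number 1, 2 or 3 left out in both lines, so that 1 list picked the segments, the differences were 1.27, 4.28 and −0.518 points for HCT116, −8.30, −1.69 and −5.85 for 22RV1 and −1.27, −2.58 and −7.97 for A375.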

How the data were processed

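The data were 42 ATAC-seq peak lists, 1 per sample and not pooled. Per the labels' protocols, libraries followed the original ATAC-seq method with bead selection of sizes. The submitters' processing notes name Bowtie2, Picard, MACS2, limma, HOMER and hg38, without versions, roles or order. Fold enrichment is a ratio to background as deposited by the authors. The authors gave p-values and q-values as −log10. Their deposited score column went unused. Lists reach down to −log10 p of about 2.00, so many intervals are weak.

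Members were found by interval arithmetic in Python 3.11.15 with numpy 2.4.6, pandas 2.3.3 and scipy 1.17.1; groups came from the labels. Coordinates are those of the files, counted from 1. Pileup and background were solved from fold and −log10 p (Poisson tail, tolerance 0.01), which gave whole-number pileups for at least 99.975% of 4000 peaks sampled in each DU4475 list. Scripts were tested on simulated data. No 2 lists of DU4475 were copies: at most 0.0583% of intervals had the same start and end in both, which does not measure overlap.

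Shares were compared by two-sided exact permutation over samples (3 against 3, smallest p 0.1), with Benjamini-Hochberg adjustment over lines. Gene lists, 20 motifs and the members were chosen with earlier results of these data known. Named are the 12 strongest members, the strongest of each gene list, the 5 loci with most members and ties, segments at the length limit, members of small counts, and further members of the lists chosen after their values were seen. Some members that this rule names are not reported here. GC and motifs of all members were not analysed here for lack of a genome. Alternatives changed the strength limit, length, overlap, lines, replicates, number of intervals and gene-end distance. The precision of all counts depends on depth, for which the lists give no reads.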

Additional observations from a re-analysis of the deposited data

How the results depend on the processing

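The difference in share found again between DMSO and FHT-1015 lists kept its direction under all 18 alternatives (1.06 to 36.2 points). Leaving out DMSO lists gave 1.06 to 2.65 points (exact permutation p from 0.4 to 0.9) and leaving out FHT-1015 lists 9.80 to 15.4. The difference of gaps to shared segments kept its direction under 15 of 18; leaving out replicates gave −1.34 to 6.27 points, negative for each DMSO list left out (−0.810, −1.34 and −0.766), and the cause was not tested.

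The number of members was 433 with strict intervals, 1744 at 200 bp, 9010 when only an overlap of 50% removed a segment, 5233 without 22RV1, 1639 when whole intervals had to be free (an alternative chosen after seeing the data), and 6230 to 6865 with 1 DMSO list left out. The percent of members without an FHT-1015 interval was 35.6, 13.7, 12.4 and 18.9 under the first 4 of these, 19.5 without RD, 27.2 with the 100000 strongest intervals and 26.4 to 35 with 1 list left out. Shared segments stayed lower in each, at 3.22 to 13.6. The gene-end share was 4.05% with the 50% overlap and 5.96% within 2 kb. Against A375 the difference between lines turned to 3.51 points with strict intervals, and against HCT116 to −0.518 without replicate 3 (range −0.518 to 4.28); these line alternatives were chosen after seeing the data, and the causes were not tested.

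With the replicate block, pairing samples by number, the differences were 12.9 and 5.87 points (exact sign-flip permutation p = 0.25, the smallest 3 pairs allow). Deviations of same-numbered samples correlated at −0.068, 0.057 and 0.026, so the numbers were not taken to pair samples. Weak intervals limit these results: 1 list shows 49.2% to 56.2% of the DU4475-only segments seen in both others.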
